A study of Mus musculus with 20 samples.

Results

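The EGF receptor family and its ligands were followed in whole mouse trachea through 10 genes: the receptors Egfr, Erbb2 and Erbb3 and the ligands Egf, Areg, Ereg, Hbegf, Tgfa, Btc and Epgn. Members were every non-control probe whose gene name on the array was one of these 10, which gave 23 of the 41174 probes on the array. Of these, 16 probes of 8 genes passed the filter on dim probes, which asked for 10 or more of the 20 arrays with a signal well above background, and were tested. The 7 other probes, among them every probe of Ereg and Epgn, were too dim for the test and are described by their values.

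The groups were uninjured wild-type C57/Bl6 mice (WT-control), wild-type mice collected 3 days after airway instillation of 2% polidocanol (WT-injury), uninjured Myd88 KO mice (KO-control) and Myd88 KO mice collected 3 days after the same injury (KO-injury), each with 5 tracheas on 1 array each. The labels give an age of 4 months for all mice. Polidocanol is a detergent that strips the surface epithelium, and Myd88 is the adaptor through which most Toll-like receptors and the IL-1 receptor signal. The Myd88 KO mice lack the gene in every cell, came from a backcrossed line bred KO with KO, and were compared with wild-type mice of a separate colony, so that genotype and colony cannot be told apart.

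Receptors of this family are membrane tyrosine kinases that pair when a ligand binds. Egf, Tgfa, Areg and Epgn bind Egfr, whereas Hbegf, Btc and Ereg also bind Erbb4. Erbb2 has no known ligand of its own and acts as a partner, and Erbb3 binds neuregulins and has little kinase activity of its own. The ligands are made as membrane proteins, and most are released by ADAM proteases. In airway epithelium the ligands Areg and Hbegf and the receptors are known for their part in wound closure and in mucous cell differentiation. Areg, Ereg, Btc and Epgn are neighbours on chromosome 5, where their probes lay within 324 kb (91023360 to 91347331 in the files' own positions, whose genome build is not given in the sources used here).

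Values below are log2 signals relative to the 75th percentile of each array, so that 0 is the brightness of a probe at that percentile, and differences are on the same log2 scale with their standard error (SE). A probe was called at an adjusted p under 0.01 (limma, Benjamini-Hochberg over the 26064 probes tested).

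The tracheas carried the markers of their tissue. All 5 secretory, 5 basal, 5 ciliated and 5 cartilage markers were well above background on every array. Skeletal muscle and thyroid markers were also present, with summed log2 signals of 8.51 to 10.28 and 6.43 to 8.89. The summed signal of 5 proliferation markers was 5.25 to 6.01 in WT-injury against 2.57 to 4.52 in WT-control. The Myd88 probe averaged 2.08 ± 0.14 (SD, n = 5) in WT-control and 1.86 ± 0.17 (n = 5) in KO-control, so it did not separate the uninjured genotypes (adjusted p = 1), and whether it lies in the deleted part of the gene is not given in the sources used here. In injured tracheas Myd88KO minus wild-type was -0.77 (SE 0.14, adjusted p = 0.00824).

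Some arrays stood apart. WT-control 3 had the highest value of its group for 13 of the 16 tested member probes, whereas it was the highest of its group for 20.5% of all tested probes. Its summed squamous markers (8.13 against 6.38 to 6.92 in the other WT-control arrays), basal markers (8.89 against 7.23 to 7.68) and proliferation markers (4.52 against 2.57 to 3.48) were also the highest of its group, and its skeletal muscle markers the lowest (8.51 against 9.32 to 10.05). KO-injury 5 had a proliferation sum of 2.76, against 4.62 to 5.70 in the other KO-injury arrays, and a secretory sum of 10.60, against 9.29 to 10.24. Each slide held 1 array of every group, and the replicate number names the slide. Slides 2, 3 and 4 were scanned on 1 day and slides 1 and 5 on another. In KO-injury, arrays 2 and 4 had summed neutrophil markers of 4.21 and 5.40 and summed macrophage markers of 4.41 and 4.46, against -0.96 to 1.24 and 2.20 to 3.16 in arrays 1, 3 and 5. In WT-injury the neutrophil sum was 3.95 to 8.01 and the macrophage sum 3.72 to 5.08. All 5 neutrophil markers were well above background in KO-injury 2 and 4, and 3, 4 and 2 of them in KO-injury 1, 3 and 5. In a whole tissue, fewer cells of a type and less RNA per cell cannot be told apart.

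No member was called in any of the 5 comparisons. In wild-type tracheas 3 days after injury, 0 of 16 member probes were called, where 5.26% of all tested probes were, and 3 of the 16 had an unadjusted p under 0.05 (26.4% of all). The same injury in Myd88KO gave 0 of 16, against 0.376% of all, with 1 at an unadjusted p under 0.05 (19.5% of all). Uninjured Myd88KO against wild-type gave 0 of 16, against 0.384%, and 0 at the unadjusted level (5.59% of all). Injured Myd88KO against wild-type gave 0 of 16, against 0.38%, and 2 at the unadjusted level (12.5% of all). The difference between the injury responses gave 0 of 16, against 0%, and 2 at the unadjusted level (10.4% of all). The members' median difference was 0.14 for injury in wild-type and 0.04 for injury in Myd88KO, beside 0 and -0.07 over all tested probes. It was -0.04 and -0.14 for genotype in uninjured and injured tracheas, beside 0.04 and -0.03. In none of the 4 pairwise comparisons did the groups separate without overlap at any tested member probe. Over all tested probes, such separation was seen for 7.8% higher and 4.65% lower after injury in wild-type, and for 1.15% and 2.25% in Myd88KO. Between the genotypes it was seen for 1.69% higher and 0.802% lower in uninjured Myd88KO, and for 0.687% and 1.24% in injured Myd88KO. These counts do not show that the members were unchanged, since the intervals below leave room for differences of more than 1 on the log2 scale for single ligands.

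**Figure D1:**
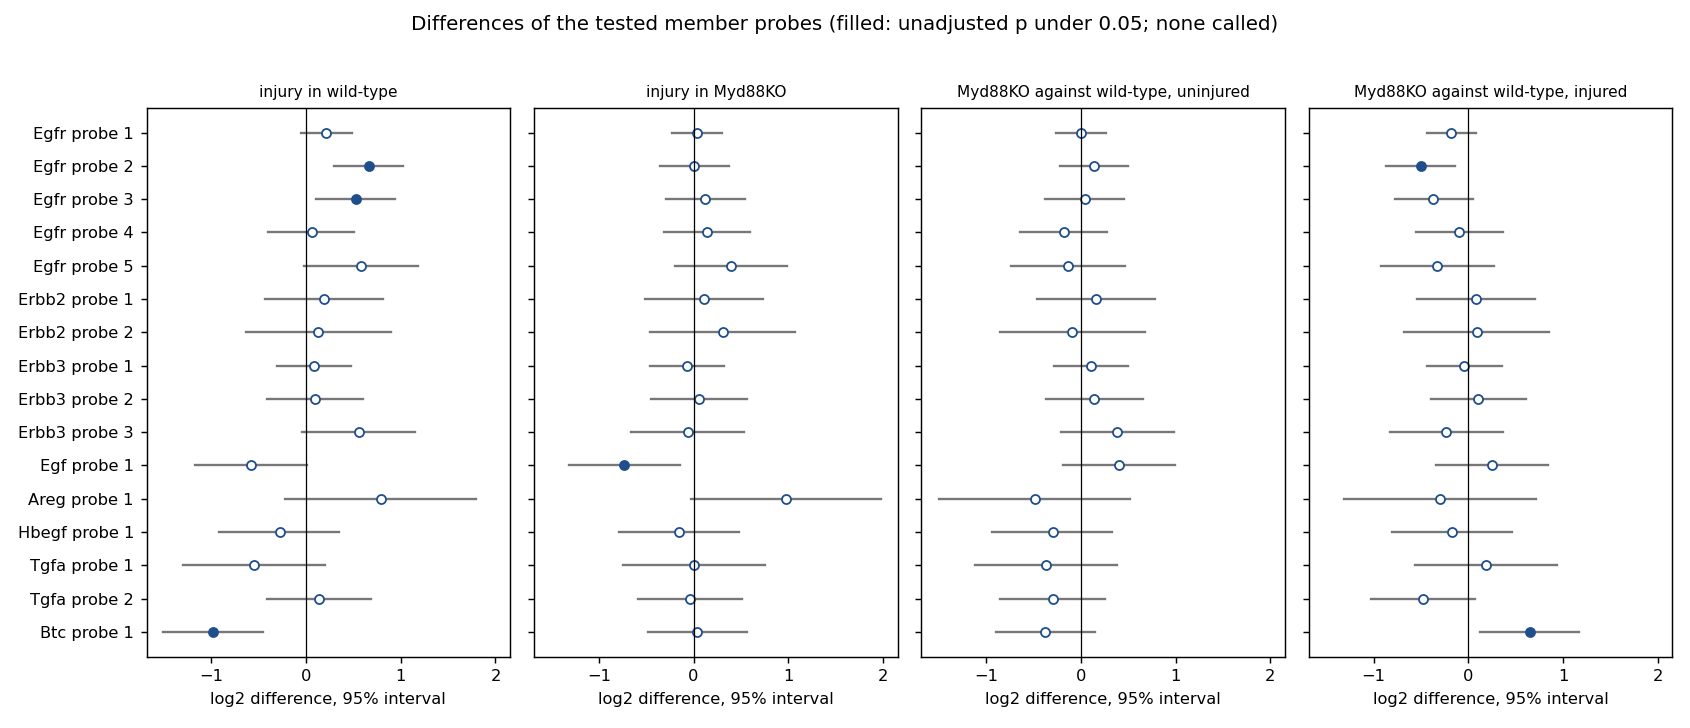
Log2 differences (x axis) of the 16 tested member probes in 4 comparisons, with 95% intervals from the limma fit over 20 arrays; filled points had an unadjusted p under 0.05. Filled points lie at Egfr probes 2 and 3 and Btc for injury in wild-type, at Egf for injury in Myd88KO, and at Egfr probe 2 and Btc for injured Myd88KO against wild-type.

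Egfr, the receptor that every one of these ligands binds, had 6 probes on chromosome 11, numbered here from the brightest. Probes 1 and 5 are named on the array for transcript variant 1 and probes 2 and 3 for variant 2, and probe 2 (16839391 to 16839450) lies 26.4 kb before probe 1 (16865821 to 16865880) along the gene. Probes 4 and 6 are named for cDNA clones, and probe 6, 128 kb from the nearest other, was well above background on 1 array.

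Egfr probe 2 was higher in injured than in uninjured wild-type tracheas, short of the threshold. Its values were -0.61, -0.65, -0.19, -0.84 and -0.79 in WT-control 1 to 5 and -0.24, 0.04, 0.14, 0.18 and 0.08 in WT-injury 1 to 5. The ranges met at a single point, where WT-control 3 lay above WT-injury 1. The difference was 0.66 (SE 0.17, 95% interval 0.29 to 1.02, adjusted p = 0.0172), a 1.58-fold higher signal, and it was higher on 5 of 5 slides. Without WT-control 3 it was 0.76 with an adjusted p of 0.00781, past the threshold. On all 20 arrays it was also past it with scan day as a block (adjusted p = 0.00595) and with array weights (0.72, adjusted p = 0.00264). Within the scan days it was 0.68 and 0.62.

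In Myd88KO the same probe read -0.53, -0.40, -0.22, -0.69 and -0.55 without injury and -0.77, 0.03, -0.57, -0.17 and -0.84 after it. The injured arrays lay on either side of the uninjured ones, and its higher values were in arrays 2 and 4. Those arrays had the higher neutrophil and macrophage sums. They also had the highest proliferation sums (5.70 and 5.65) and basal sums (8.81 and 8.55) of KO-injury. Their mean log2 signals were the lowest of the group for the secretory markers (4.92 and 5.13) and the ciliated markers (1.09 and 0.01). The secretory sum did not follow this, since array 2 (9.64) lay above array 3 (9.51). The part of these markers in the Egfr values was not tested. The injury difference in Myd88KO was 0.01 (interval -0.35 to 0.37, adjusted p = 0.983). Injured Myd88KO minus injured wild-type was -0.50 (interval -0.87 to -0.14, unadjusted p = 0.00888, adjusted p = 0.225 in limma) and lower on 5 of 5 slides, and the injury responses differed by -0.65 (interval -1.16 to -0.13, adjusted p = 0.398). The difference between genotypes in the response was thus not past the threshold.

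The other Egfr probes did not all move with probe 2. Probe 3, also of variant 2, differed by 0.53 in wild-type (SE 0.20, adjusted p = 0.0887), with -1.18, -0.88, -0.41, -1.04 and -1.09 before and -0.68, -0.29, -0.27, -0.24 and -0.49 after injury. WT-control 3 was again the uninjured array that reached into the injured range. Probe 1, of variant 1, differed by 0.21 (interval -0.05 to 0.48, adjusted p = 0.288) and was higher on 5 of 5 slides. Probe 5 differed by 0.58 (interval -0.02 to 1.18) and probe 4 by 0.06 (interval -0.40 to 0.51).

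Probe 2 was set against probe 1 within each array, a pair chosen after their values had been seen, so that the values are a description and carry no test. Probe 2 minus probe 1 averaged -2.55 ± 0.11 (SD, n = 5) in WT-control and -2.11 ± 0.25 (n = 5) in WT-injury, and -2.41 ± 0.20 and -2.44 ± 0.35 in KO-control and KO-injury. The pair does not stand for the variants, since the second variant 1 probe, probe 5, had a difference close to those of the variant 2 probes.

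**Figure D2:**
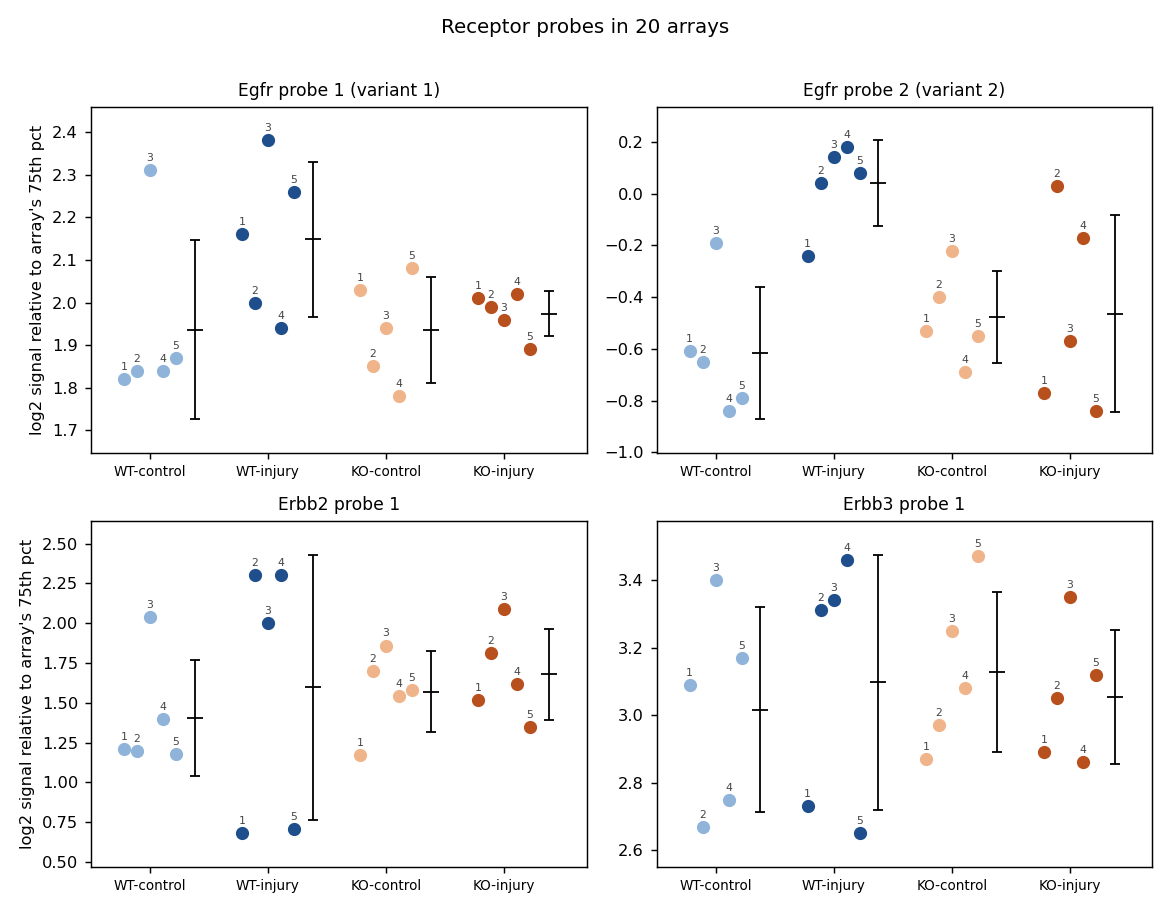
Log2 signal relative to the array's 75th percentile (y axis) of 4 receptor probes on 20 arrays in 4 groups; points are arrays with their replicate number, and bars are the mean ± SD of 5. In the Egfr probe 2 panel the injured wild-type arrays lie above 4 of the 5 uninjured ones, and WT-control 3 is the highest of its group in all 4 panels.

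Erbb2, the receptor without a ligand of its own, was brightly detected and split by scan day. Probe 1 (chromosome 11, 98545828 to 98545887) read 1.21, 1.20, 2.04, 1.40 and 1.18 in WT-control and 0.68, 2.30, 2.00, 2.30 and 0.71 in WT-injury. The injured arrays formed a low pair, replicates 1 and 5 of the second scan day, and a high trio of the first day. The pooled injury difference was 0.19 (interval -0.43 to 0.81, adjusted p = 0.726), made of 0.65 within the first day and -0.50 within the second, so the direction was not the same on both. KO-control (1.17 to 1.86) and KO-injury (1.35 to 2.09) overlapped, with a difference of 0.11 (interval -0.51 to 0.73). Probe 2 differed by 0.13 in wild-type and 0.31 in Myd88KO.

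The basal cell markers, a list that includes Krt5 and Krt14, moved with these arrays. Their summed log2 signal was 7.46 and 7.34 in WT-injury 1 and 5 and 8.57 to 8.77 in the other WT-injury arrays, and all 5 basal markers were well above background on each. Other lists split the same arrays. WT-injury 1 and 5 also had the lowest ciliated sums (5.48 and 5.38) and the highest macrophage sums (5.08 and 4.87) of their group. The part of these lists in the Erbb2 values was not tested.

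Erbb3, the neuregulin receptor, had 5 probes on chromosome 10. Probe 1, named on the array for a predicted transcript, read 2.67 to 3.40 in WT-control, 2.65 to 3.46 in WT-injury, 2.87 to 3.47 in KO-control and 2.86 to 3.35 in KO-injury. All 4 groups covered nearly the same range. The injury difference was 0.08 (interval -0.31 to 0.47) in wild-type and -0.07 (interval -0.46 to 0.32) in Myd88KO, and the wild-type value was 0.43 within the first scan day and -0.44 within the second. The gene is on the minus strand, and from its 3′ end the probes began at 128069461, 128071993, 128073907, 128073927 and 128086809 and were well above background on 20, 14, 10, 5 and 1 of the 20 arrays. Detection thus fell with distance from the 3′ end, also among the 4 probes after the first. The 4 dimmer probes are those named for the Erbb3 transcript, and they carry little weight. In WT-control probe 1 averaged 3.02 and probe 2 averaged -4.49, so the identity of probe 1 as Erbb3 rests on the array's name alone. Of the tested ones, probe 3 differed by 0.56 after injury in wild-type (interval -0.04 to 1.15, adjusted p = 0.221), by -0.06 in Myd88KO, and by -0.62 between the responses (interval -1.46 to 0.22).

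Among the ligands, Btc had a lower mean after injury in wild-type and Egf in both genotypes, Areg had a higher mean in both with a wide spread, and no difference was past the threshold. Btc (betacellulin) probe 1, on chromosome 5 at 91346189 to 91346248, was the member nearest the threshold. It read -3.53, -3.14, -2.14, -3.47 and -3.97 in WT-control and -4.73, -3.73, -3.95, -4.53 and -4.21 in WT-injury. The groups overlapped through WT-control 5, and WT-control 5 and WT-injury 1 and 4 were not well above background. The difference was -0.98 (SE 0.25, interval -1.51 to -0.46, adjusted p = 0.0146), a signal 0.506 times that of uninjured tracheas, lower on 5 of 5 slides.

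The Btc call turned on the setting. On all 20 arrays it was past the threshold with scan day as a block (adjusted p = 0.00806) and with array weights (-0.85, adjusted p = 0.0086), whereas normexp background correction with an offset of 50 gave -0.45 (adjusted p = 0.0789). Without WT-control 5 it was -1.16 (adjusted p = 0.00624) and without WT-control 3, the brightest array, it was smaller, at -0.71 (adjusted p = 0.0227). Within the scan days it was -1.15 and -0.72. The second Btc probe was well above background on 0 of 20 arrays.

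In Myd88KO, Btc hardly varied. KO-control read -3.62, -3.70, -3.57, -3.46 and -3.78 and KO-injury -3.39, -3.57, -3.59, -3.79 and -3.58, a difference of 0.04 (interval -0.48 to 0.57). Injured Myd88KO was above injured wild-type by 0.65 (interval 0.12 to 1.17, unadjusted p = 0.0187, adjusted p = 0.28 in limma) and higher on 5 of 5 slides. The injury responses differed by 1.02 (interval 0.28 to 1.77, unadjusted p = 0.00959, adjusted p = 0.391).

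Egf, the founding ligand of the family, was lower after injury in both genotypes, short of the threshold. Its single probe (chromosome 3, 129517262 to 129517321) read 0.55, 1.12, 0.27, 0.34 and 1.00 in WT-control and 0.32, 0.48, -0.05, -0.34 and -0.02 in WT-injury. The ranges overlapped, and the difference was -0.58 (interval -1.17 to 0.01, adjusted p = 0.201). KO-control read 1.03, 0.85, 1.08, 0.75 and 1.57 and KO-injury 0.30, 0.29, -0.11, -0.35 and 1.52. In KO-injury, 4 arrays lay below every uninjured one and KO-injury 5 lay among them. The difference was -0.73 (interval -1.32 to -0.14, adjusted p = 0.163), and without KO-injury 5 it was -1.02 (adjusted p = 0.00689), past the threshold.

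Egf was lower on 5 of 5 slides in each genotype, and the injury responses differed by -0.15 (interval -0.98 to 0.69). The summed secretory markers were also lower after injury, at 9.48 to 9.80 in WT-injury against 10.59 to 11.43 in WT-control, and KO-injury 5 was the highest KO-injury array for them as for Egf. Of the 5 secretory markers, 3 were called lower after injury in wild-type and 2 in Myd88KO. Their part in the Egf difference was not tested, nor was that of the other marker lists, salivary gland among them.

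Areg (amphiregulin), a ligand known for its induction in injured epithelium, was higher on average after injury but varied widely. Its probe on chromosome 5 (91129331 to 91129390) read -3.23, -3.65, -2.43, -3.39 and -2.29 in WT-control and -2.13, -2.07, -2.54, -3.78 and -0.54 in WT-injury. WT-injury held both the highest and the lowest of these 10 values. The difference was 0.79 (interval -0.22 to 1.79, adjusted p = 0.319). It was 0.36 and 1.43 within the scan days, 0.37 without WT-injury 5 and 0.45 under normexp background correction. In Myd88KO the values were -3.48, -4.29, -3.77, -3.02 and -2.88 before and -3.18, -1.45, -3.47, -2.17 and -2.29 after injury. The difference there was 0.98 (interval -0.03 to 1.98, adjusted p = 0.274), higher on 5 of 5 slides against 3 of 5 in wild-type. Within the scan days it was 1.33 and 0.44, and normexp gave 0.46. The 2 highest KO-injury values were those of arrays 2 and 4. These had the higher neutrophil, macrophage, proliferation and basal sums and the lower secretory and ciliated means. The part of these markers was not tested.

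Hbegf (heparin-binding EGF-like growth factor) was set apart by 1 array. WT-control read 0.36, 0.39, 2.07, 0.25 and 0.72, with WT-control 3 well above the rest, and WT-injury 0.57, 0.78, -0.01, 0.32 and 0.71. The injury difference was -0.28 (interval -0.92 to 0.35) in wild-type and -0.15 (interval -0.79 to 0.48) in Myd88KO, where KO-control ranged from 0.04 to 1.14 and KO-injury from -0.28 to 0.76. Without WT-control 3 the wild-type difference changed sign, to 0.05 (adjusted p = 0.922), and it was -0.54 and 0.10 within the scan days. Injured Myd88KO lay below injured wild-type on 5 of 5 slides, with a mean difference of -0.17 (interval -0.81 to 0.46, adjusted p = 0.863).

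Tgfa (transforming growth factor alpha), a membrane-anchored Egfr ligand, showed no difference past its spread. Probe 1 on chromosome 6 read -3.93 to -1.95 in WT-control, -4.65 to -2.83 in WT-injury, -4.27 to -3.34 in KO-control and -4.16 to -3.16 in KO-injury. The injury difference was -0.55 (interval -1.30 to 0.20) in wild-type and 0.01 (interval -0.74 to 0.76) in Myd88KO. In each group the mean was lower on the second scan day, by group -2.93 and -3.77, -3.36 and -4.50, -3.39 and -4, and -3.32 and -4.09 in the order just given. Within the days the wild-type difference was -0.44 and -0.73, and without WT-control 3 it was -0.22. Under normexp it was -0.27. Probe 2 differed by 0.14 and -0.04.

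**Figure D3:**
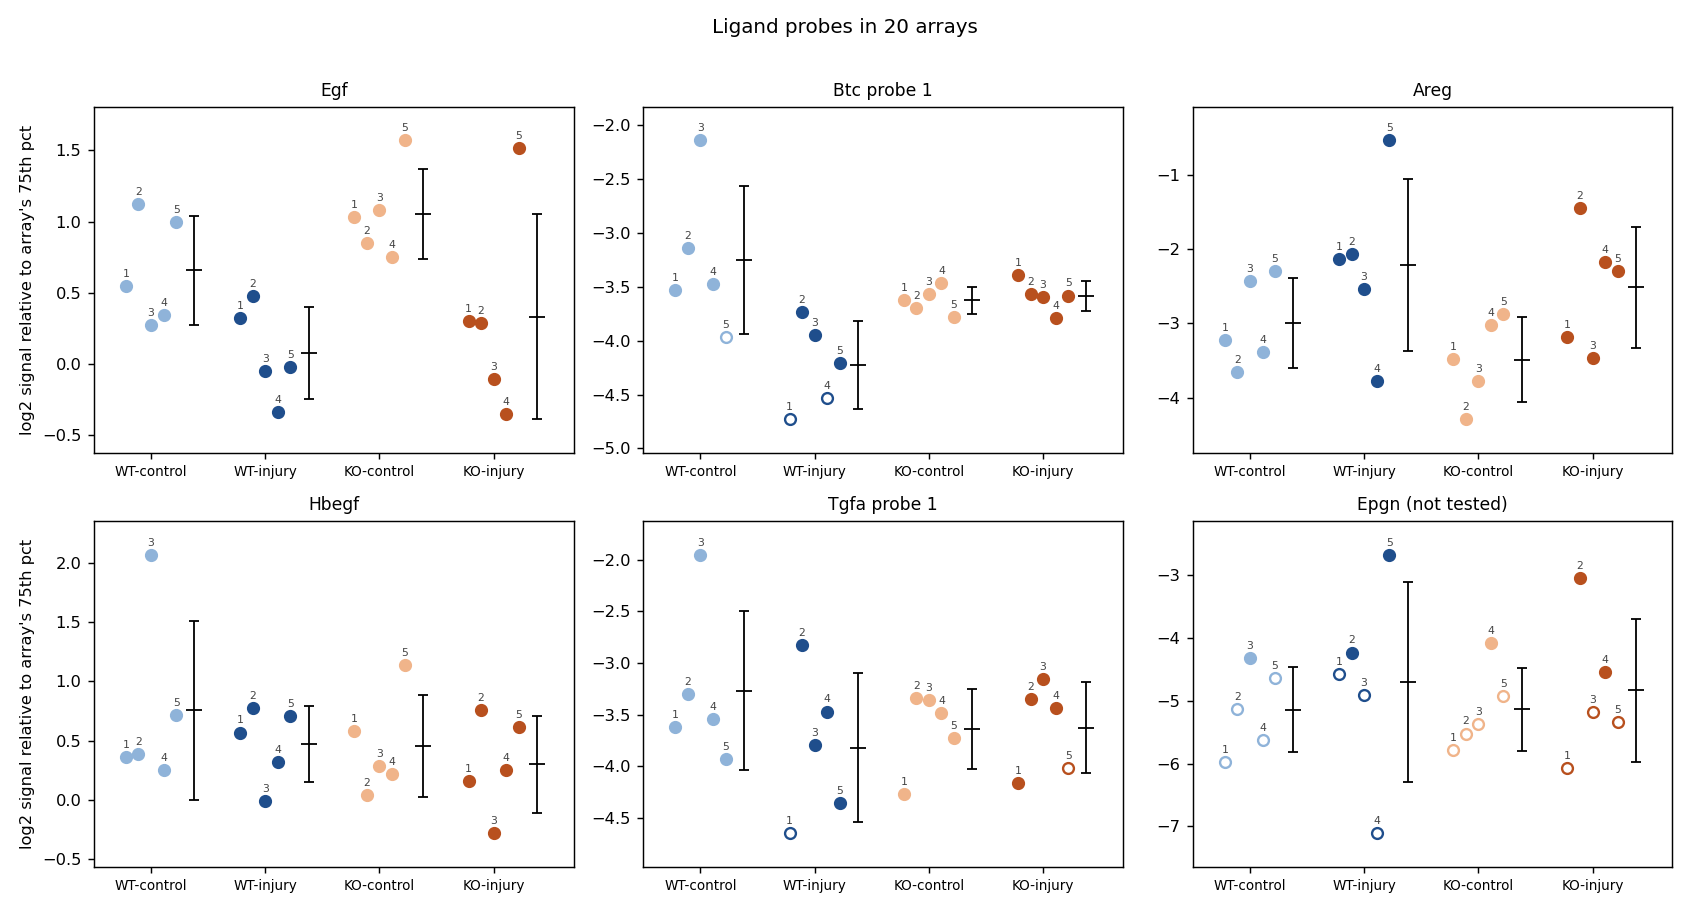
Log2 signal relative to the array's 75th percentile (y axis) of 6 ligand probes on 20 arrays in 4 groups; open points were not well above background, numbers are replicates, and bars are the mean ± SD of 5. Btc is lower in WT-injury than in KO-injury on every slide, and KO-injury 5 is the Egf value of its group at the uninjured level.

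Epgn and Ereg, the epigen and epiregulin genes, were mostly at background. Epgn was well above background on 6 of 20 arrays, with its highest value of -2.67 in WT-injury 5, the array that was also highest for Areg. WT-control 3, WT-injury 2, KO-control 4 and KO-injury 2 and 4 were the others. Ereg probe 2, named for the Ereg transcript, was well above background on 1 array, WT-control 3 (-3.62 against -6.94 to -5.77 in the other WT-control arrays). Ereg probe 1 was so on 8 arrays, 4 of them WT-injury, but it is named for a cDNA clone and lies 40.7 kb from probe 2 on the opposite strand, so its identity as Ereg rests on the array's name alone. No fold is given for these genes.

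WT-control 3 was the highest array of its group for Hbegf, Tgfa probe 1, Btc probe 1, Epgn and both Ereg probes, the next to highest for Areg and the lowest for Egf. The part of its squamous, basal and proliferation markers in these values was not tested.

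**Figure D4:**
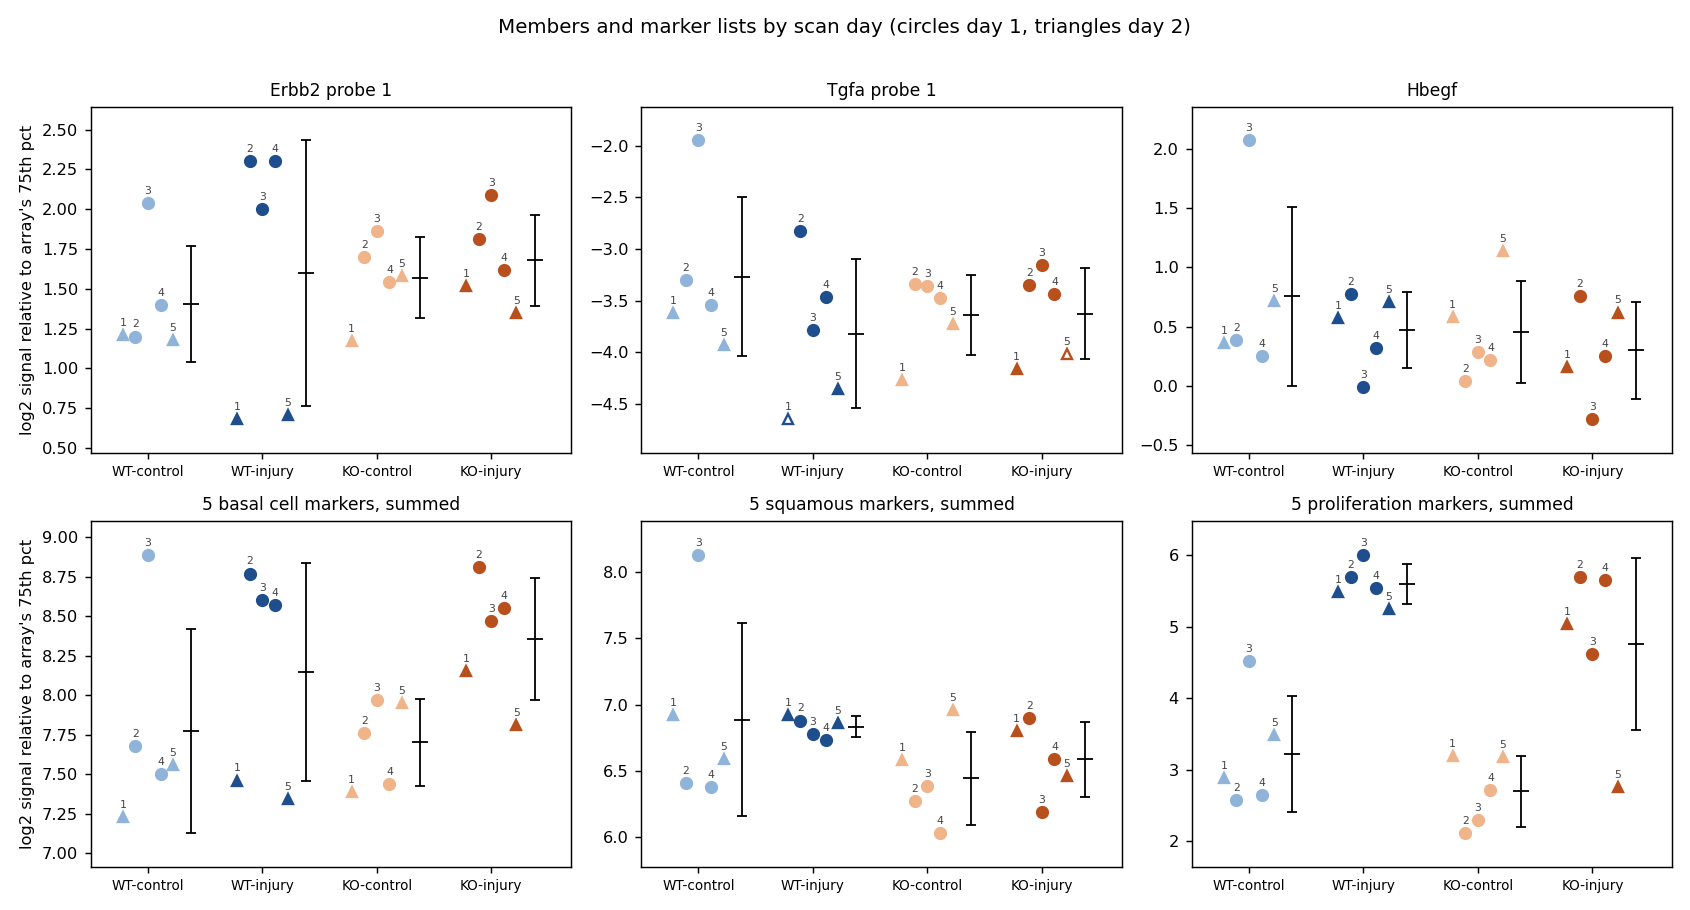
Log2 signal of 3 members and summed log2 signal of 3 marker lists (y axes) on 20 arrays in 4 groups, with circles for the first and triangles for the second scan day, open points not well above background, replicate numbers, and bars for the mean ± SD of 5. WT-injury 1 and 5 are low for Erbb2 and the basal markers, and WT-control 3 is the highest of its group in all 6 panels.

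The rest of the pathway was read through 5 lists of 77 genes, of which 70 were tested. Beyond the members, the receptors and ligands list (Erbb4, neuregulins and Tdgf1) had 1 gene called higher of 3 tested after injury in wild-type. That was 1 of 5 tested probes, where 3.24% of all tested probes were called higher and 2.03% lower. The gene was Nrg1, the neuregulin that binds Erbb3 and Erbb4. Its called probe read -6.16, -6.02, -7.12, -4.51 and -4.68 in WT-control, where 0 of 5 were well above background, and -2.37, -2.52, -3.49, -3.48 and -2.45 in WT-injury, where 5 of 5 were. This probe passed the filter with exactly 10 arrays, 5 of them WT-injury, so that it was tested through the group where it is high. The injured arrays all lay above the uninjured ones, at least 3.65-fold on average on these values (adjusted p = 0.00572). Normexp background correction gave a log2 difference of 0.74 (adjusted p = 0.0366), below that bound and not past the threshold. The bound sets each dim array at the higher of its own value and the lowest signal well above background on that array.

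A second Nrg1 probe differed in the same direction, by 1.73 (SE 0.43, adjusted p = 0.0113), and the next by 0.67 (adjusted p = 0.44). Both of these were well above background on 4 of 5 WT-control arrays, so Nrg1 was detected without injury. The remaining 2 Nrg1 probes were too dim to test. In Myd88KO the called probe ran from -5.17 to -4.09 before and from -5.60 to -1.96 after injury, a difference of 0.66 (SE 0.62, adjusted p = 0.604). Its higher KO-injury values, -1.96 and -2.34, were again those of arrays 2 and 4, and arrays 1, 3 and 5 read -5.60, -4.47 and -5.38. The part of the neutrophil, macrophage, proliferation, basal, secretory and ciliated markers was not tested. When single arrays were left out the wild-type call held in 4 of 10 fits (adjusted p up to 0.0178). The difference between the responses was not past the threshold.

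In the inhibitor list 1 gene fell after injury in both genotypes. Spry1, a Sprouty inhibitor of receptor tyrosine kinase signalling, fell by 0.69 on the log2 scale in wild-type (SE 0.15, adjusted p = 0.00459) and fell by 0.92 in Myd88KO (SE 0.15, adjusted p = 0.005). It read 1.70 to 2.11 and 1.09 to 1.36 in wild-type, and 1.98 to 2.14 and 0.83 to 1.65 in Myd88KO. Injured and uninjured arrays did not overlap in either genotype, as for 4.65% of all tested probes lower in wild-type and 2.25% lower in Myd88KO. Of the 20 tested genes of the inhibitor list Spry1 was the only one called for injury, in wild-type and in Myd88KO alike. That was 1 of 35 tested probes in each, beside 2.03% and 0.242% of all tested probes called lower. The call held in 5 of 10 fits with 1 array left out in wild-type (adjusted p up to 0.0147) and in 2 of 10 in Myd88KO (up to 0.0194).

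Timp3, an inhibitor of the ligand-releasing protease ADAM17, fell by 0.85 in wild-type (SE 0.17, adjusted p = 0.0034), from 4.73 to 5.37 before to 4.18 to 4.41 after injury. An outlier spot was left out in WT-control 2 and in KO-injury 5, so the fit drops those arrays for this probe. In Myd88KO the difference was -0.60 (adjusted p = 0.0552). The wild-type call held in 6 of 10 fits with 1 array left out (adjusted p up to 0.0156). It was the 1 gene called of 10 tested in the ligand release list, whose ADAM and rhomboid members gave 0. That was 1 of 15 tested probes, where 2.03% of all tested probes were called lower.

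Among adaptors and kinases, 1 of 21 tested genes was called for injury in wild-type. That was 1 of 45 tested probes, where 3.24% of all tested probes were called higher. Nras, a RAS GTPase, rose by 1.02 at 1 probe (SE 0.23, adjusted p = 0.00708), from -0.67 to 0.33 before to 0.39 to 0.88 after injury, and its other probe differed by 0.50 (adjusted p = 0.107). In Myd88KO the called probe differed by 0.87 (adjusted p = 0.0457), and the wild-type call held in 2 of 10 fits with 1 array left out (adjusted p up to 0.0228). Of 16 tested transcripts known to be raised by ERK signalling, 1 was called in each genotype, and they were not the same gene. Each was 1 of 24 tested probes, where 3.24% of all were called higher in wild-type and 0.242% lower in Myd88KO. Hmga2, a chromatin protein, rose by 1.52 in wild-type (SE 0.36, adjusted p = 0.00887), from -2.68 to -1.31 before to -1.27 to 0.14 after injury, beside 0.35 in Myd88KO (adjusted p = 0.644). A second Hmga2 probe differed by 1.90 in wild-type (adjusted p = 0.0226), short of the threshold. That probe was well above background on 1 WT-control, 5 WT-injury, 1 KO-control and 3 KO-injury arrays. It was thus tested through the group where it is high, and its value is no support for the call. The remaining Hmga2 probe was too dim to test. The Hmga2 call was lost with the slide as a replicate block (adjusted p = 0.018) and held in 2 of 10 fits with 1 array left out (up to 0.0312). Egr1, an immediate early transcription factor, fell by 1.85 in Myd88KO (SE 0.30, adjusted p = 0.00524), from 2.06 to 3.35 before to 0.55 to 1.48 after injury, beside -0.52 in wild-type (adjusted p = 0.293). The Egr1 call held in 3 of 10 such fits (adjusted p up to 0.0205). The difference between the genotypes in response was not past the threshold for any of the 26064 probes tested.

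The median differences of these lists after injury in wild-type were 0.67, 0.33, 0.03, 0.14 and 0.17 in the order described at first (receptors and ligands, release, adaptors and kinases, inhibitors, ERK transcripts), beside 0 over all tested probes. In Myd88KO they were 0.46, 0.08, -0.07, 0.01 and -0.12, beside -0.07.

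Between genotypes, 1 pathway probe was called. It was 1 of 35 tested probes of the inhibitor list, where 0.196% of all tested probes were called lower without injury and 0.23% after it. Rnf41 (Nrdp1), a ubiquitin ligase known to lower Erbb3 protein, had 4 tested probes on chromosome 10, and the one at 127942875 to 127942934 read -1.98 to -1.71 in WT-control and -3.97 to -3.63 in KO-control. The genotypes did not overlap. Myd88KO minus wild-type was -2.01 (SE 0.13, adjusted p = 1.23e-08) without injury and -2.54 (SE 0.13, adjusted p = 3.2e-10) after it. The other 3 Rnf41 probes were not called in either state (adjusted p from 0.156 to 1), and differed by 0.57, 0.46 and 0.02 without injury and by 0.64, 0.63 and -0.01 after it. One of them (127939674 to 127939733) is named for the same transcript as the called probe, and the other 2 for a cDNA clone. With separate colonies and 1 of 4 probes, a lower level of the transcript and a difference in the sequence under the probe cannot be told apart. The call held in 10 of 10 fits with 1 array left out in each state. The called probe lies 127 kb from the nearest Erbb3 probe. Erbb3 probe 1, whose identity rests on the array's name alone, differed by 0.11 (interval -0.28 to 0.50) and -0.05 (interval -0.44 to 0.35) between the genotypes.

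**Figure D5:**
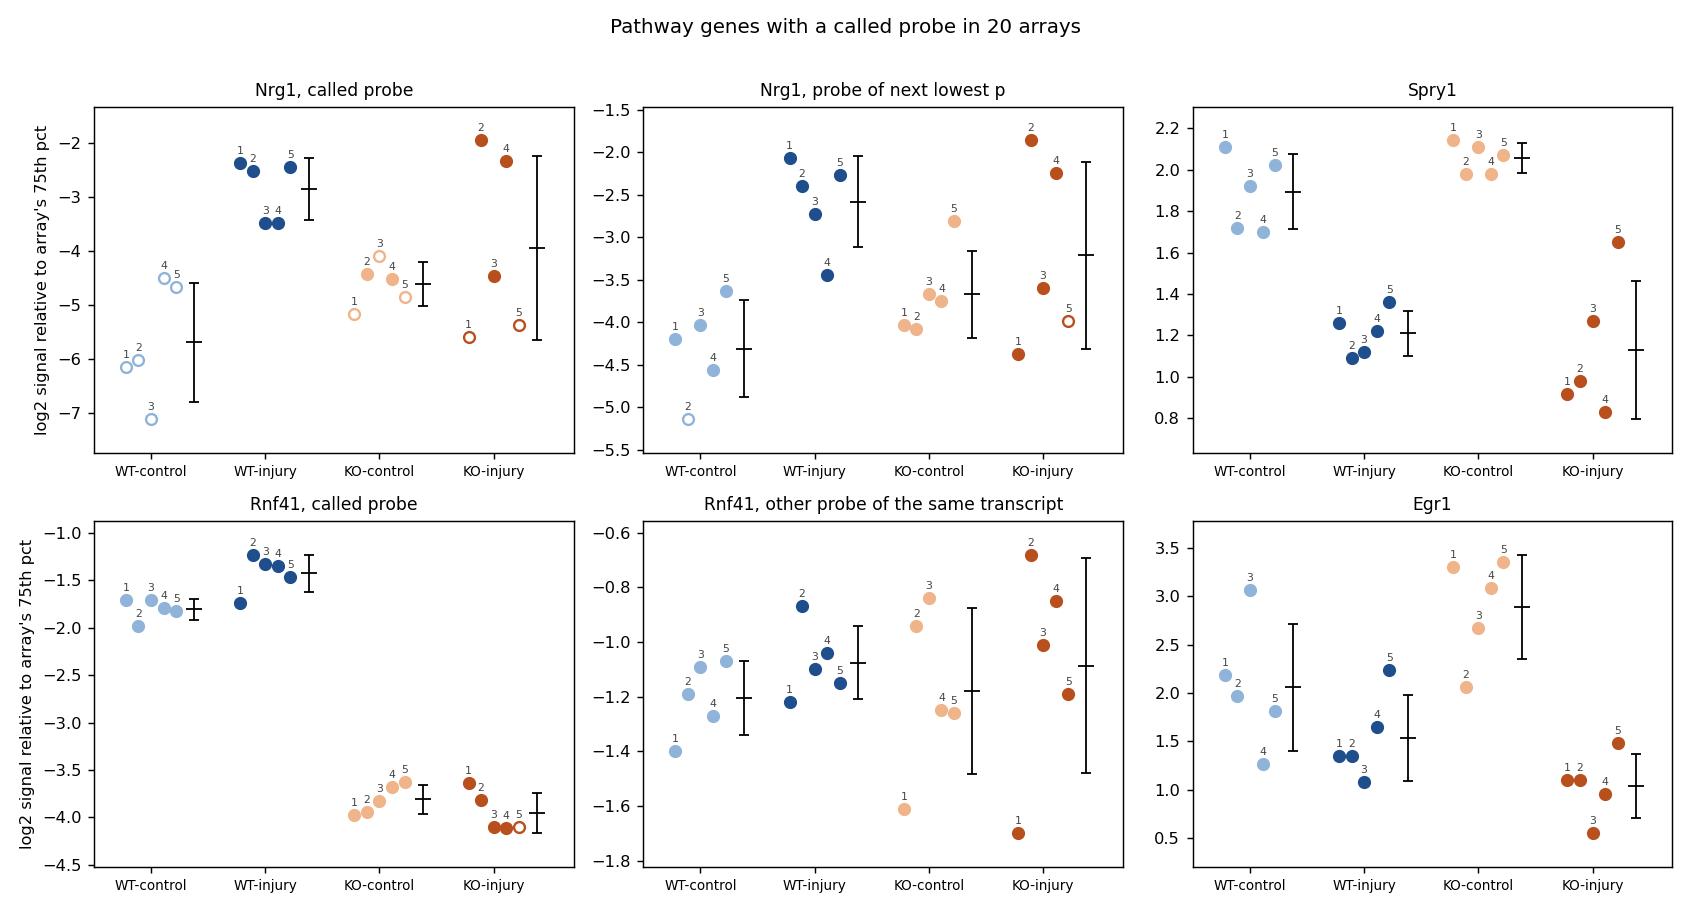
Log2 signal relative to the array's 75th percentile (y axis) of 6 probes of pathway genes on 20 arrays in 4 groups; open points were not well above background, numbers are replicates, and bars are the mean ± SD of the arrays with a value. The called Rnf41 probe separates the genotypes in both states while the other probe of the same transcript does not. The called Nrg1 probe is well above background on 0 of 5 WT-control and 5 of 5 WT-injury arrays, and the other Nrg1 probe on 4 of 5 and 5 of 5.

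In uninjured tracheas the members showed no genotype difference with an unadjusted p under 0.05. The widest differences were -0.49 for Areg (interval -1.50 to 0.52) and 0.40 for Egf (interval -0.19 to 0.99). Next were -0.38 for Btc (interval -0.90 to 0.15) and 0.38 for the dim Erbb3 probe 3 (interval -0.21 to 0.98). With 1 array left out the Btc value ran from -0.56 to -0.10. Egfr was the most tightly bounded member, with 0.00 (interval -0.26 to 0.26) at probe 1 and 0.14 (interval -0.22 to 0.50) at probe 2. The injury and genotype comparisons share arrays, so their values are set side by side and not counted as separate evidence.

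Precision within an array was higher than between arrays. Probes printed at 10 spots had a median spot SD of 0.0479 (Egfr probe 1), 0.0638 (Egfr probe 2), 0.0386 (Erbb2 probe 1), 0.0614 (Egf) and 0.103 (Tgfa probe 1) on the log2 scale, whereas the SD over the 5 WT-control arrays was 0.21, 0.26, 0.36, 0.38 and 0.77. This did not hold in every group, since the SD of Egfr probe 1 over the KO-injury arrays was 0.05, close to its spot SD. Btc, Areg, Hbegf and Erbb3 probes were each printed at 1 spot, so their values have no such check.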

How the data were processed

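Total RNA of 20 whole tracheas was hybridized to one-colour Agilent mouse arrays. The authors extracted intensities with Feature Extraction 9.5.1.1, and the deposited intensity used here (gProcessedSignal) was background-subtracted and not scaled between arrays. The deposited values of the series, the same intensity (ratio to the scanner files 0.995 to 1), were an alternative. Control spots (1639 of 45018) and outlier-flagged spots (1960 values) were left out, the spots of a probe were averaged, and log2 values were set relative to each array's 75th percentile. Probes well above background on at least 10 of 20 arrays were fitted with limma 3.58.1 in R 4.3.3, all 20 arrays in 1 fit, with 5 contrasts. P-values were adjusted by Benjamini-Hochberg within a contrast and called under 0.01, the threshold of the study's methods, which used a one-way parametric test. The number of arrays limits the precision. The sources give the mice of the study as coming from several litters but tie no array to a litter or a sex, and p-values measure the spread between these samples.

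Replicate numbers are slides. The fit was also run on simulated data with known changes, whose outcome is not given here. The members and the pathway and marker lists were chosen with earlier results of these data known. All members are named, and pathway genes where a probe was called; the rule to name genes of like profile applied to called members and found 0. The probe numbers run from the brightest. Alternatives were normalization, background correction, filter, blocks, array weights, test, deposited values, outlier spots and each array left out. The values of 1 marker list are not reported here.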

Additional observations from a re-analysis of the deposited data

Results flagged for a closer look

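Of 64 sets of 5 values (16 tested member probes in 4 groups), 3 held a value whose gap to the nearest other exceeded 0.71 of the range, where chance alone flags about 1 in 20. All 3 were WT-control 3: Egfr probe 1 at 2.31 (next 1.87), Erbb2 probe 1 at 2.04 (next 1.40) and Hbegf at 2.07 (next 0.72). Btc probe 1 was flagged because every KO-control value lay below the WT-control mean and every KO-injury value above the WT-injury mean. The genotype difference was 1.02 higher in injured than in uninjured tracheas, and the test of that difference gave an adjusted p of 0.391 (limma).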

How the results depend on the processing

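The count of called members stayed at 0 in the 3 comparisons other than injury under every alternative. For injury in wild-type it was 2 when scan day was blocked and 2 when arrays were weighted (Egfr probe 2 and Btc probe 1 in each), 1 with the methods' one-way test before adjustment (Egfr probe 2) and 0 to 1 when single arrays were left out (Egfr probe 2 without WT-control 3, Btc probe 1 without WT-control 5). With WT-control 3 and KO-injury 5 both left out, a choice made after seeing the data, it was 1 (Egfr probe 2), and 2 with the replicate block in addition (Egfr probes 2 and 3). For injury in Myd88KO it was 1 with array weights, 1 with both arrays left out and 1 with the block in addition, and 0 to 1 when single arrays were left out (without KO-injury 5), each time Egf. Over all alternatives the p-value ran from 0.00142 to 0.0988 for Egfr probe 2 and from 0.00624 to 0.145 for Btc probe 1 in wild-type. For Egf in Myd88KO it ran from 0.00304 to 0.767, and no sign changed. These p-values are adjusted ones, except under 1 alternative, the methods' one-way test before adjustment, which enters with its unadjusted p. The replicate block alone called 0 members in each comparison, with 0.0126 and 0.011 for Egfr probe 2 and Btc probe 1 and 0.0545 for Egf in Myd88KO. The number is that of the slide, so this block is also the slide block. Deviations from group means correlated at -0.26 to 0.48 between same-numbered arrays of different groups (median 0.24, 23 of 30 over 0.1) and at -0.52 to 0.54 between others (median -0.08, 35 of 120 over 0.1), and 10 of 20 arrays correlated best with their own number. Not every same-numbered pair exceeded 0.1, so the block was kept as an alternative.

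The sign changed in 176 of 2192 recomputed member differences, 42 of them within 1 scan day. None of these was called or had an unadjusted p under 0.05 as reported. The called pathway genes kept their sign in all 234 recomputed values and lost the call in 73. With 5 arrays a group and dim probes for Btc, Areg, Ereg and Epgn, differences under about 1 on the log2 scale are poorly resolved. Over all probes the number called ran, over the alternatives, from 664 to 3800 for injury in wild-type (1372 as reported), from 0 to 1901 for injury in Myd88KO (98 as reported, 1075 without KO-injury 5), from 3 to 743 and from 21 to 1251 for genotype in uninjured and injured tracheas (100 and 99 as reported), and from 0 to 148 for the difference between the injury responses (0 as reported). The values farthest from those reported came from fits within 1 scan day, array weights or the methods' test. Of these, 3800 and 743 came from the methods' one-way test before adjustment. They count probes at an unadjusted p under 0.01 and are not like the reported counts, which use adjusted p.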

Other observations

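Profiles nearest to 3 members over the 20 arrays were looked up after their values had been seen, by the mean absolute difference between mean-centred log2 profiles. Egfr probe 2 was nearest to Cnn2 (0.09) and Dph1 (0.117), beside a median of 0.432 over all tested probes. Btc probe 1 was nearest to Ggh (0.203) and Atp2c1 (0.205), beside a median of 0.501. Egf was nearest to Fitm2 (0.174) and Tpd52l1 (0.175), beside a median of 0.547.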
